A study of Mus musculus with 10 samples.

Results

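Acetylation of histone H4 (H4Ac) was mapped in mouse embryonic fibroblasts that lack Myod1 and Myf5, and the regions described here were called in the cells given green fluorescent protein (GFP) but in neither population given a muscle factor. The peaks of the 3 H4Ac lists that shared at least 1 bp were merged into 45627 regions, and each region was named by the lists that contributed a peak. Of these, 4792 regions (10.5%) held a peak of the GFP list only. They are 16.4% of the 29188 regions with a GFP peak. The regions were thus chosen by measured H4Ac coverage passing or missing a cutoff, and their H4Ac coverage, width and GC content are given as a description, with no test. The MyoD and Myf5 peaks come from separate precipitations that took no part in the choice.

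All populations carried the MyoD-/-; Myf5-/- genotype and received a lentivirus with GFP, MyoD or Myf5. Differentiation medium was given 24 h after infection, and the cells were harvested after a further 20 h. H4Ac was measured on native chromatin cut with micrococcal nuclease, with 1 list for each population: 31120 peaks in cells with GFP, 36864 in cells with MyoD and 32041 in cells with Myf5. The MyoD list (45015 peaks) and the Myf5 list (93787 peaks) came from crosslinked, sonicated cells with that factor, and each covers a pair of replicates by its title. Mock precipitations with either factor antibody from cells with GFP gave 942 (MyoD antibody) and 1359 (Myf5 antibody) peaks. Every group had 1 list, which leaves the spread between replicates unmeasured, and p-values are not given. The depth of each library is unknown from these files. Intervals are 95% intervals that cover counting error only (exact binomial for shares), and neighbouring regions are not independent.

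Acetylated lysines on the tail of histone H4 are found on nucleosomes of active promoters and enhancers, where they are placed by histone acetyltransferases and removed by deacetylases. The myogenic factors MyoD and Myf5 belong to the basic helix-loop-helix family, bind E-box DNA and direct cells to the skeletal muscle lineage. MyoD is known to recruit acetyltransferases when it activates muscle genes in fibroblasts.

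Regions called with GFP only were weak within the GFP list. Each peak comes with its maximum read coverage and with a coverage cutoff that depends on 1 of 5 bins of GC content, so strength is given here as coverage divided by cutoff. The median was 1.095 (quartiles 1.04 and 1.21), and the highest value was 2.63. Exactly at the cutoff lay 997 regions (20.8%). The median was 1.25 for regions called in cells with GFP and MyoD, 1.15 for those called with GFP and Myf5, and 1.75 for regions called in all 3 populations. Regions called in 1 of the other populations lay as near to their own list's cutoff, with medians of 1.095 for MyoD cells only and 1.1 for Myf5 cells only. Of the regions called in all 3, 2.41% lay at the cutoff and 65.1% reached 1.5 times the cutoff. Among the regions called with GFP only, 255 (5.32%) reached 1.5 times and 22 (0.459%) reached 2 times the cutoff.

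Read from the side of the GFP list, the share of regions called with GFP only fell with strength. It was 43.8% (42.5 to 45.1) of the 5572 GFP regions under 1.1 times the cutoff and 29.7% (28.2 to 31.2) of the 3588 regions from 1.1 to under 1.2. From 1.2 to under 1.5 times it was 16.1% (15.2 to 17.0) of 6440, and from 1.5 to under 2 times 4.04% (3.55 to 4.58) of 5763. At 2 times the cutoff or more it was 0.281% (0.176 to 0.425) of 7825. The plot of strength in GFP cells shows both views. The lists give no coverage of the cells with MyoD or Myf5 at these regions, so a region missing from those lists is uncalled and not shown to be without acetylation.

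**Figure D1:**
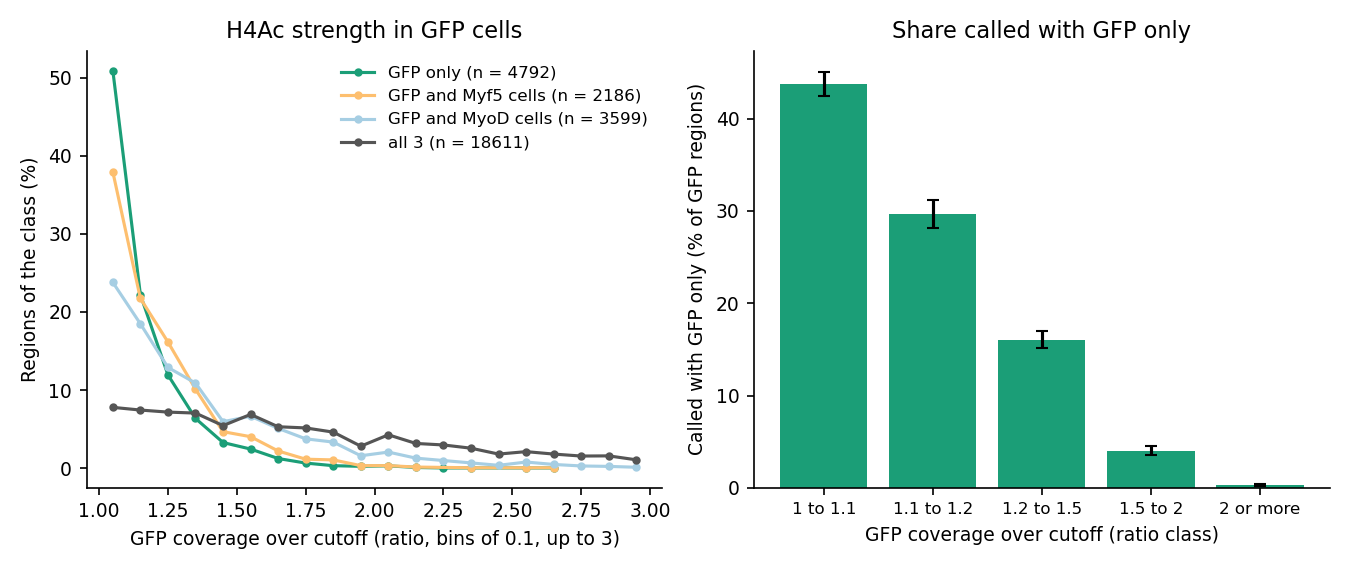
Left, share of regions (y, % of the class) by H4Ac coverage over cutoff in GFP cells (x, ratio in bins of 0.1, shown up to 3) for the 4 classes of regions with a GFP peak. Right, share of GFP regions that were called with GFP only (y, %, bars with exact 95% binomial intervals) in 5 classes of coverage over cutoff (x); it fell from 43.8% in the weakest to 0.281% in the strongest class.

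The coverage itself sat close to the cutoff in every GC bin. At up to 40% GC, where the GFP cutoff was 21, the 910 regions called with GFP only had coverages of 21 to 41 with a median of 22, against a median of 32 for regions called in all 3 populations. In the bin of 45 to 50% GC, with a cutoff of 26, the 1584 regions had coverages of 26 to 60 with a median of 29, against 48. Above 55% GC, with a cutoff of 30, the 158 regions had coverages of 30 to 79 with a median of 34, against 60. The ranges overlap throughout, since both classes start at the cutoff, and the upper ends differ: the highest coverage was 79 over all regions called with GFP only and 911 over those called in all 3.

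The cutoffs differed between the 3 lists. From the lowest to the highest GC bin they were 21, 24, 26, 28 and 30 in the GFP list, 19, 21, 22, 24 and 26 in the MyoD cells and 20, 24, 27, 29 and 31 in the Myf5 cells. The cutoff in the MyoD cells was thus lower than the GFP cutoff in each bin. The cutoff in the Myf5 cells was 1 read lower in the bin of up to 40% GC, equal in the next and 1 read higher in the other 3. Without library depths these thresholds cannot be set on a common scale.

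Among regions with a GFP peak, the share called with GFP only was highest at both ends of the GC range. The bin of up to 40% GC held 19.0% of the regions called with GFP only and 11.1% of those called in all 3. It held 26.7% for GFP and Myf5 cells and 6.84% for GFP and MyoD cells. The bins over 50% GC together held 17.8% of the regions called with GFP only, with 14.5% at 50 to 55% and 3.30% above 55%. In these bins, regions of GFP and MyoD cells had 20.2% and 3.81%, and those called in all 3 had 12.8% and 1.98%. As a share of all GFP regions in the bin, those called with GFP only made up 23.9% (22.6 to 25.3) at up to 40% GC, 15.1% at 40 to 45%, 14.2% (13.6 to 14.9) at 45 to 50%, 17.3% at 50 to 55% and 23.4% (20.2 to 26.7) above 55%. Regions called in the Myf5 cells only lay further to the GC-poor side, with 39.6% at up to 40% GC. The plot of GC bins shows this beside the factor peaks described below.

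**Figure D2:**
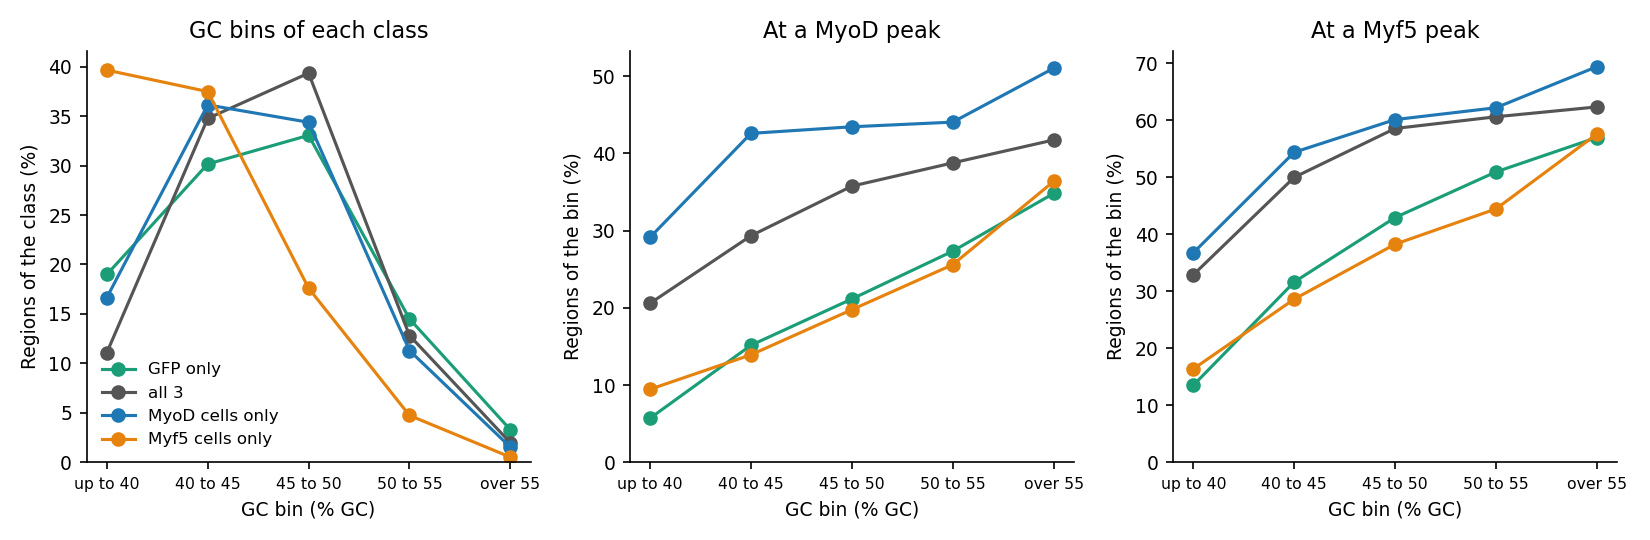
Left, share of each class (y, %) in the authors' 5 GC bins (x, % GC). Middle and right, share of the regions of each bin that overlapped a MyoD or a Myf5 peak (y, %), for regions called with GFP only, in all 3 populations, in MyoD cells only and in Myf5 cells only. In the bin of 45 to 50% GC, 21.1% of the regions called with GFP only and 35.8% of those called in all 3 lay at a MyoD peak.

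Regions called with GFP only were also narrow. Their median width was 249 bp (quartiles 182 and 335, range 73 to 1268), and each consisted of a single GFP peak. The merged regions of the other classes with a GFP peak had medians of 340 bp (GFP and MyoD cells), 357 bp (GFP and Myf5 cells) and 565 bp (all 3), where merging of peaks from several lists adds to the width. Among regions called in 1 population, the medians were 170 bp for MyoD cells and 234 bp for Myf5 cells. Together the regions called with GFP only covered 1.31 Mb, against 12.3 Mb for those called in all 3.

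The strongest single region lay on chromosome 18 at 80909911 to 80910383, with a GFP coverage of 79 at a cutoff of 30 and a control coverage of 5. It had no factor peak, and another region called with GFP only lay 92 bp away. The next lay on chromosome 19 at 5771072 to 5771420 (coverage 71, cutoff 28) and on chromosome 9 at 122026441 to 122026643 (coverage 60, cutoff 26). These 2 stood alone among H4Ac regions: the nearest others were 15238 and 12578 bp away, both called in all 3 populations. Neither overlapped a factor peak, but a Myf5 peak lay 387 bp from the chromosome 19 region. The factor peak nearest to the chromosome 9 region was a Myf5 peak 6839 bp away. The region on chromosome 15 at 62332863 to 62333215 (coverage 54, cutoff 24) had a Myf5 peak of coverage 38 and another region called with GFP only 318 bp away, and the nearest H4Ac peak of the factor cells was 67437 bp off. The region on chromosome 3 at 135086174 to 135086428 (coverage 52, cutoff 24) lay 66 bp from a region that the GFP and MyoD cells shared.

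The other 5 of the 10 strongest had GFP coverages of 50 to 64. They lay on chromosome 15 at 38229209 to 38229768 (coverage 64, with a strong Myf5 peak of coverage 768), on chromosome 11 at 77421036 to 77421345 (55, no factor peak) and on chromosome 16 at 30064425 to 30065045 (63, at peaks of MyoD and Myf5). The last pair were on chromosome 8 at 19891528 to 19891889 (50) and on the X chromosome at 120217159 to 120217518 (50, at a Myf5 peak of coverage 29). The chromosome 8 region had a control coverage of 15 with a control p-value of 1.03e-05, just above the threshold of 1e-05 used to mark high controls, and it overlapped a Myf5 mock peak of coverage 45. Of the 10 regions, 6 had neither factor peak, 4 had a Myf5 peak and 1 of these also a MyoD peak. Among all 22 regions of at least 2 times the cutoff, 12 had a Myf5 peak (54.5%, 32.2 to 75.6), against 46.3% of all merged regions, and 5 had a MyoD peak (22.7%, 7.82 to 45.4), against 28.8%. Regions called in all 3 with a GFP coverage of at least 2 times the cutoff had shares of 60.1% (Myf5) and 37.1% (MyoD). For 10 of the 22 (45.5%, 24.4 to 67.8) no H4Ac peak of the factor cells lay within 10 kb, against 29.0% of all regions called with GFP only. With 22 regions, each of these intervals includes every share it is set against.

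A smaller share of the regions called with GFP only than of all H4Ac regions lay at factor peaks. A MyoD peak overlapped 851 of them, 17.8% (16.7 to 18.9), where the share over all merged regions was 28.8%. A Myf5 peak overlapped 1704, 35.6% (34.2 to 36.9), where the share over all regions was 46.3%. Peaks of both factors met at 831 regions (17.3%), and a MyoD peak without a Myf5 peak lay at 20 (0.417%). A Myf5 peak without a MyoD peak lay at 873 (18.2%), and neither at 3068 (64.0%, 62.6 to 65.4). In the other classes, both met at 13.1% (Myf5 cells only) to 40.1% (MyoD cells only), and neither lay at 44.7% (MyoD cells only) to 72.8% (Myf5 cells only). A MyoD peak without a Myf5 peak was as rare in those classes, at 0.320% (GFP and Myf5 cells) to 0.814% (MyoD cells only). The share with a Myf5 peak alone was 13.3% (Myf5 cells only) to 21.3% (all 3) there, so the 18.2% was within their range. The higher share at Myf5 peaks went with the longer Myf5 list: with the 45015 strongest peaks of each list, the shares were 19.3% (18.2 to 20.5) at Myf5 and 17.8% at MyoD peaks.

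The 7 classes of regions fell into 2 sets by whether the H4Ac list of the MyoD cells contributed. The 3 classes without a peak of the MyoD cells had MyoD peaks at 17.8% (GFP only), 14.3% (GFP and Myf5 cells, 12.9 to 15.9) and 13.9% (Myf5 cells only, 13.0 to 14.7) of their regions. The 4 classes with one had MyoD peaks at 31.6% (GFP and MyoD cells, 30.1 to 33.1), 32.3% (all 3, 31.7 to 33.0), 35.2% (both factors and not GFP, 33.7 to 36.7) and 40.9% (MyoD cells only, 39.7 to 42.2). Myf5 peaks fell into the same 2 sets, at 35.6%, 31.7% and 26.4% in the first and at 50.7%, 53.1%, 49.97% and 54.5% in the second, in the same order. No interval of one set reached the other, as the plot of shares at factor peaks shows.

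**Figure D3:**
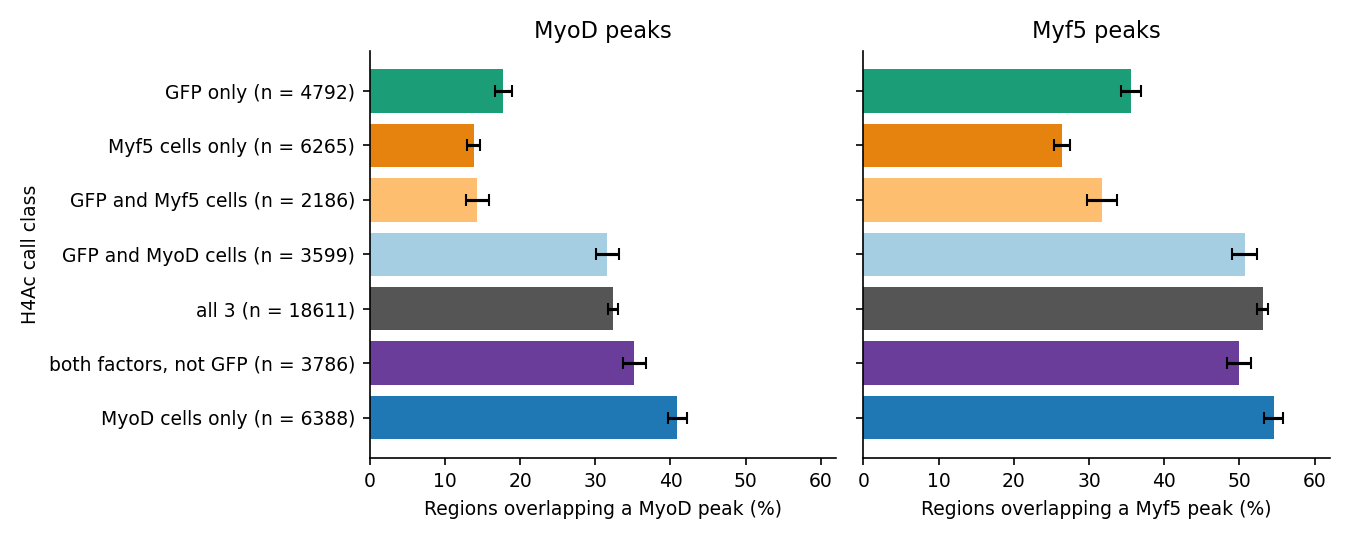
Share of H4Ac regions that overlapped a MyoD peak (left) or a Myf5 peak (right) by at least 1 bp (x, %), for the 7 classes named by the populations in which H4Ac was called (y, with the number of regions). Error bars are exact 95% binomial intervals; the 3 upper classes, without an H4Ac peak of the MyoD cells, lie below the 4 others for both factors.

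The gap to regions called in all 3 populations shrank when strength, width and GC were matched, and did not close. The raw difference was -14.6 percentage points (-15.9 to -13.3) at MyoD peaks and -17.5 (-19.0 to -16.0) at Myf5 peaks. Reweighting the regions called in all 3 to the GC bins of those called with GFP only gave -13.8 (-15.1 to -12.5) and -16.0 (-17.5 to -14.4). Reweighting to their classes of GFP coverage over cutoff gave -10.1 (-11.8 to -8.36) and -9.82 (-11.8 to -7.82), and to GC, width and coverage classes together -8.55 (-12.4 to -4.70) and -6.52 (-10.6 to -2.48). Single GFP peaks compared at their own extent, matched on all 3, differed by -7.31 (-8.89 to -5.72) and -6.87 (-8.75 to -4.99). Intervals of differences use a normal approximation.

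The differences from regions called in Myf5 cells only depended on what was matched. At MyoD peaks the raw difference of 3.90 percentage points (2.52 to 5.28) became 0.319 (-1.36 to 2.00) when GC was matched, 3.49 (2.09 to 4.89) for width, 3.94 (2.56 to 5.32) for coverage over cutoff and 0.372 (-1.42 to 2.17) for the 3 together. At Myf5 peaks the raw difference of 9.19 (7.45 to 10.9) became 2.83 (0.802 to 4.85), 8.36 (6.59 to 10.1), 9.29 (7.55 to 11.03) and 3.75 (1.64 to 5.87) in the same order, all above 0. Against regions called in MyoD cells only, the GC-matched differences were -23.0 (-24.7 to -21.4) at MyoD and -19.0 (-20.8 to -17.2) at Myf5 peaks. Raw values for that class were -23.2 and -19.0. Matching gave -31.1 (-32.9 to -29.2) and -27.2 (-29.2 to -25.2) on width, and -22.6 and -18.5 on coverage. On the 3 together it gave -24.7 (-27.0 to -22.5) and -21.3 (-23.7 to -18.9). Against regions shared by GFP and Myf5 cells the raw differences were 3.44 (1.62 to 5.26) at MyoD and 3.90 (1.53 to 6.28) at Myf5 peaks. They were 1.03 (-1.11 to 3.16) and 0.152 (-2.42 to 2.72) with GC matched, 4.92 (2.72 to 7.13) and 9.33 (6.63 to 12.04) with width, and 3.56 (1.69 to 5.44) and 4.45 (2.02 to 6.89) with coverage. With the 3 matched together they were 0.293 (-2.73 to 3.32) and 2.24 (-1.18 to 5.66), and for single GFP peaks at their own extent 1.93 (-0.230 to 4.09) and 2.93 (0.342 to 5.52).

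Within the regions called with GFP only, the share at factor peaks was higher at higher GC and larger width, and by strength up to 2 times the cutoff. MyoD peaks overlapped 5.71% (4.30 to 7.43) at up to 40% GC, 21.1% (19.2 to 23.2) at 45 to 50% and 34.8% (27.4 to 42.8) above 55%. Myf5 peaks overlapped 13.5%, 42.9% and 56.96% in the same bins. By strength, MyoD peaks overlapped 15.3% (13.9 to 16.8) of the regions under 1.1 times the cutoff and 25.3% (19.9 to 31.4) of those from 1.5 to under 2 times, and at 2 times or more it was 5 of 22. By width, the shares were 9.11% (6.67 to 12.1) up to 150 bp and 31.03% (21.5 to 41.9) over 600 bp. Regions called in MyoD cells only had MyoD peaks at 29.1% up to 40% GC and 43.4% at 45 to 50%. The rises were not particular to regions called with GFP only. In regions called in all 3, MyoD peaks overlapped 20.6% at up to 40% GC and 41.7% above 55%. By strength it was 27.1% under 1.1 times the cutoff and 31.3% from 1.5 to under 2 times. By width it was 16.7% of the 18 regions up to 150 bp and 37.4% of those over 600 bp.

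The factor peaks at these regions were of ordinary strength within their lists. At the 851 regions with a MyoD peak, the strongest such peak had a median coverage of 51, with quartiles of 36 and 87.5. The median of the whole MyoD list was 49. MyoD peaks at regions called in all 3 populations had a median of 62, and those at regions called in MyoD cells only a median of 107. With MyoD peaks ranked and cut into 3 equal groups, 35.4% of the overlapped regions had a peak of the top group, against 46.1% for all 3 and 69.2% for MyoD cells only. The Myf5 peaks had a median coverage of 62, against 55 in the whole Myf5 list, 77 at regions called in all 3 and 73 at those called in Myf5 cells only.

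Some factor peaks at these regions also reached acetylation that was called with the factor. The shares count regions by their strongest factor peak, so a peak that spans neighbouring regions is counted at each. Of the 851 regions at a MyoD peak, 302 (35.5%, 32.3 to 38.8) had one reaching an H4Ac peak of the MyoD cells elsewhere. The matching share was 35.7% (32.5 to 39.0) for MyoD peaks at regions called in Myf5 cells only, the other large class without a peak of the MyoD cells. Of the 1704 regions at a Myf5 peak, 561 (32.9%, 30.7 to 35.2) had one touching an H4Ac peak of the Myf5 cells. In the other classes without a peak of the Myf5 cells, this share was 27.0% (25.5 to 28.5) for MyoD cells only and 36.7% (34.5 to 38.9) for GFP and MyoD cells, so it lay between them. The factor peaks at regions called with GFP only are longer than the H4Ac regions, with median widths of 780 bp (MyoD) and 1008 bp (Myf5).

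Factor peak centres gathered around the regions called with GFP only, less densely than around regions called in all 3 populations or in MyoD cells only. Within 200 bp on either side of the region centre, the mean per bin of 100 bp was 19.2 MyoD peak centres per 1000 regions, against 5.97 at 1500 to 2000 bp, a ratio of 3.22. For regions called in all 3 populations the values were 25.9 and 5.63, for MyoD cells only 44.8 and 6.42, and for Myf5 cells only 13.5 and 4.41. Myf5 peak centres stood at 34.4 per 1000 regions in the middle and 10.3 outside. The values were 42.2 and 10.9 for regions called in all 3, 54.9 and 11.4 for MyoD cells only, and 24.2 and 8.94 for Myf5 cells only. The levels at 1500 to 2000 bp also varied between these classes, from 4.41 to 6.42 for MyoD and from 8.94 to 11.4 for Myf5. Regions called with GFP only stood above those of Myf5 cells only both near the centre and at that distance. Their ratios of middle to outer level were 3.22 and 3.06 for MyoD, and 3.34 and 2.71 for Myf5.

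**Figure D4:**
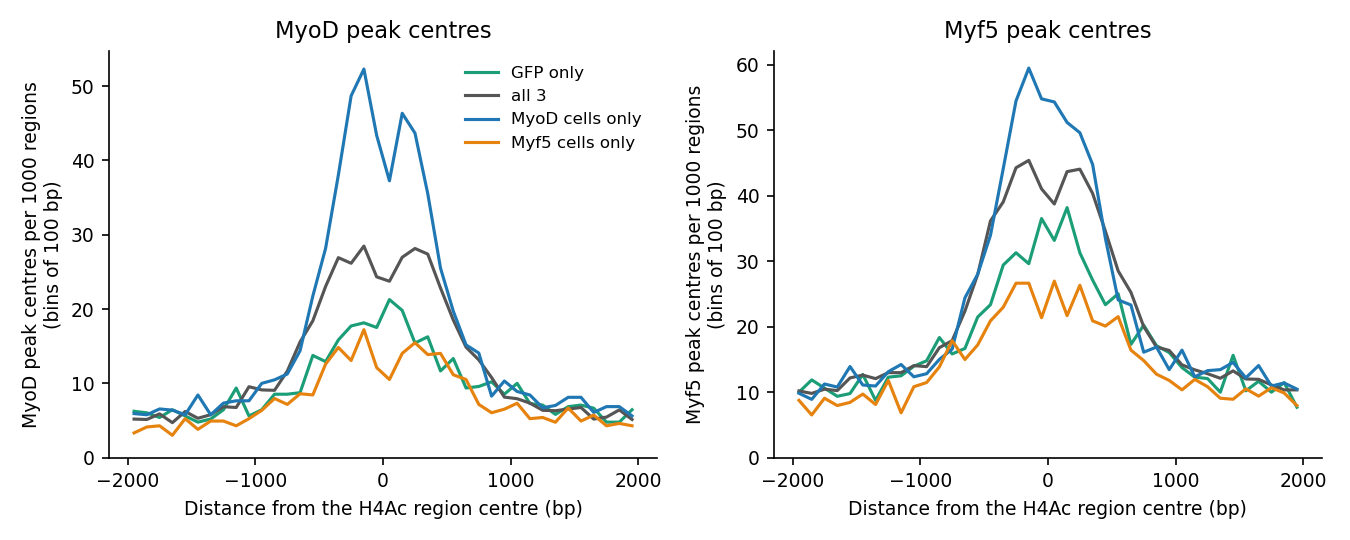
Number of MyoD (left) and Myf5 (right) peak centres per 1000 H4Ac regions (y, bins of 100 bp) by distance from the centre of the region (x, bp), for 4 classes of regions. Regions called with GFP only (green) lie between those called in Myf5 cells only and those called in all 3 near the centre.

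The 5 regions called with GFP only at the strongest MyoD peaks had GFP coverages of 31 to 46. On chromosome 12, the region at 112933972 to 112934644 had a GFP coverage of 33 at a cutoff of 30 and peaks of coverage 797 for MyoD and 1800 for Myf5. A region shared by the GFP and MyoD cells lay 154 bp away. The next were on chromosome 1 at 137565244 to 137565585 (H4Ac 32, MyoD 524, Myf5 759) and at 75215969 to 75216402 (H4Ac 33, MyoD 513, Myf5 676), the latter 184 bp from a region called in all 3. The others lay on chromosome 10 at 79623605 to 79624167 (H4Ac 46, MyoD 449, Myf5 1034) and on chromosome 16 at 14705986 to 14706287 (H4Ac 31, MyoD 431, Myf5 743). The chromosome 16 region stood far from other acetylation, with the nearest H4Ac region 121115 bp away.

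The 5 regions at the strongest Myf5 peaks without an overlapping MyoD peak had a MyoD peak within 797 bp. On chromosome 10, the region at 69583889 to 69584401 had a GFP coverage of 26 and a Myf5 coverage of 1371, and the nearest MyoD peak was 797 bp away. The others were on chromosome 1 at 137596224 to 137596485 (Myf5 901, MyoD peak 572 bp away), on chromosome 15 at 38229209 to 38229768 (Myf5 768, 545 bp), on chromosome 5 at 106160514 to 106160779 (Myf5 729, 162 bp) and on chromosome 11 at 16492276 to 16492569 (Myf5 712, 149 bp). The widest regions had widths of 1009 to 1268 bp and GFP coverages of 31 to 43. The widest was on chromosome 10 (119912715 to 119913982), followed by regions on chromosome 12 (25784612 to 25785823) and chromosome 15 (27854350 to 27855497). Those on chromosome 3 (68298263 to 68299280) and chromosome 1 (75502313 to 75503321) came next, and the latter carried a MyoD peak of coverage 352 and a Myf5 peak of coverage 620.

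Regions called with GFP only were found both beside other acetylated regions and alone. Another H4Ac region of any class lay within 1 kb of 2642 (55.1%), against 62.7% of all merged regions, and 1167 (24.4%) had none within 10 kb. The share with none within 10 kb was similar for MyoD cells only (25.4%) and Myf5 cells only (24.2%), and it was 17.7% for regions called in all 3. A region called in all 3 populations lay within 1 kb of 1323, 27.6% (26.3 to 28.9), against 34.9% of all regions. The same share was 23.04% (22.02 to 24.1) for regions called in MyoD cells only and 26.8% (25.7 to 27.9) for Myf5 cells only. The median gap to the nearest region was 559 bp, close to the 528 bp of MyoD cells only and the 463 bp of Myf5 cells only, and longer than the 201 bp of regions called in all 3. Any H4Ac peak of the MyoD or Myf5 cells lay within 1 kb of 48.2% of the regions called with GFP only. When peaks up to 500 bp apart were merged, 2592 regions in place of 4792 held GFP peaks only.

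**Figure D5:**
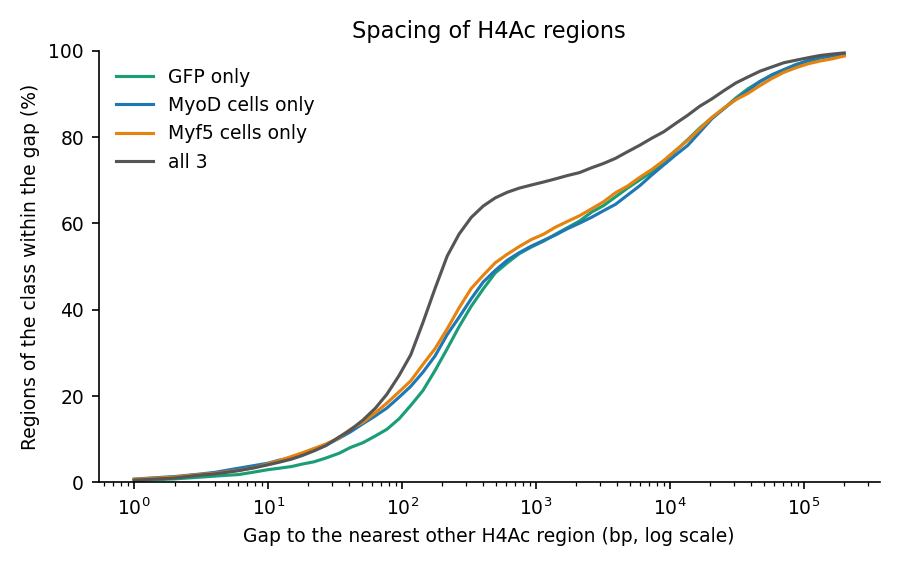
Share of regions (y, % of the class) whose nearest other H4Ac region of any class lay within a given gap (x, bp between edges, log scale), for regions called with GFP only, in MyoD cells only, in Myf5 cells only and in all 3 populations. At 1 kb the 3 classes called in 1 population stand at 55.1% to 56.8% and the regions called in all 3 at 69.2%.

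Among the 2642 regions with a neighbour within 1 kb, the nearest neighbour was called in all 3 populations for 1071 (40.5%), the share that this class has among all regions being 40.8%. It was another region called with GFP only for 484 (18.3%), where that class is 10.5% of all regions. It was not called with GFP at all for the 255 next to a region of MyoD cells only, the 260 next to one of Myf5 cells only and the 121 next to one of both factors. Regions of the other classes called in 1 population also neighboured their own class, at 30.2% for MyoD cells only and 26.3% for Myf5 cells only, which make up 14.0% and 13.7% of all regions.

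The regions with a neighbour within 1 kb differed little from the isolated ones in strength, with a median coverage over cutoff of 1.12 against 1.08 for those with no H4Ac region within 10 kb. Their MyoD share was 19.9% (18.4 to 21.4), against 16.8% (14.7 to 19.1) for the isolated regions, a difference of 3.08 percentage points (0.446 to 5.71). Their Myf5 share was 38.8% (36.9 to 40.6), against 33.7% (30.97 to 36.5), a difference of 5.08 (1.796 to 8.37). A factor peak that spans neighbouring regions is counted at each, and these intervals do not allow for that. Regions with a neighbour at 1 to 10 kb had the lowest shares, at 13.2% (11.2 to 15.5) and 29.2% (26.4 to 32.1), and were the poorest in GC of the 3, with 26.4% at up to 40% GC. The 2483 regions with no H4Ac peak of the factor cells within 1 kb had shares of 15.3% and 31.9%. The split by neighbours was not the same in every class. MyoD peaks overlapped 34.9% of the regions called in all 3 with a neighbour within 1 kb, against 25.4% of the isolated ones. For Myf5 cells only the shares were 14.9% and 13.3%. For MyoD cells only the order was reversed, at 41.5% and 43.3%. Myf5 shares differed in the same direction as MyoD shares in each of these classes.

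A minority of the regions called with GFP only formed runs, taken as neighbours at most 10 kb apart with no region of another class between them. There were 389 runs of at least 2 regions, holding 843 regions (17.6%), against 23.9% of the regions of MyoD cells only and 22.8% of those of Myf5 cells only. Those 2 classes are larger, at 14.0% and 13.7% of all regions against 10.5%. In the smaller classes, 14.4% (GFP and MyoD cells), 13.3% (both factors and not GFP) and 9.61% (GFP and Myf5 cells) lay in runs. Of the 389 runs, 333 had 2 regions, 48 had 3, 7 had 4 and 1 had 5. The longest lay on chromosome 16 at 30063368 to 30070182, where 5 regions in 6.82 kb had GFP coverages of 28 to 63. The one with coverage 63 is among the 10 strongest named above, and its run held 1 region at a MyoD peak and 2 at Myf5 peaks. Runs of 4 lay on chromosome 14 at 26339044 to 26352652 (coverages 31 to 38), chromosome 1 at 135971676 to 135974240 (26 to 41), chromosome 9 at 119890129 to 119893406 (33 to 37) and chromosome 8 at 26579105 to 26582271 (26 to 38). All 4 regions of the chromosome 14 run had a Myf5 peak, and none of the chromosome 8 run had a peak of either factor.

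The rule turns on a single shared base. Just inside it, 268 regions (5.59%) lay within 50 bp of an H4Ac peak of the factor cells without touching it. The closest, on chromosome 4 (12014864 to 12015062), adjoined such a peak with a gap of 0 bp. Gaps of 1 bp were found on chromosome 17 (56322671 to 56322932), chromosome 12 (82050436 to 82050872), chromosome 14 (22103883 to 22103996) and chromosome 6 (24597134 to 24597293). Coverages of these 5 were 21 to 32. Just outside it, 60 of the 24396 other regions with a GFP peak (0.246%) owed their class to an overlap of at most 50 bp, down to 5 bp on chromosome 12 at 87188064 to 87188597 and 6 bp on chromosome 4 at 58593803 to 58594184. The median overlap of these other regions was 335 bp. At the coverage end, the first of the 997 regions at the cutoff, taken by highest coverage and then by position, were at 27741551 to 27741704, 32173853 to 32174429 and 32986353 to 32986535 on chromosome 2, at 89766698 to 89767047 on chromosome 3 and at 45544265 to 45544422 on chromosome 4, each with a coverage of 30.

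Mock precipitation peaks were rare here. Of the regions called with GFP only, 3 overlapped a mock peak (0.0626%), where the share over all merged regions was 0.125%, and each was a Myf5 mock peak. Beside the chromosome 8 region named above, these were on the X chromosome at 166581990 to 166582289 (GFP coverage 41, mock coverage 31) and on chromosome 10 at 114685878 to 114686081 (GFP coverage 29, mock coverage 33). None of the 4792 regions had a control p-value of 1e-05 or lower, against 15 of the 18611 regions called in all 3. Regions of GFP and MyoD cells and of GFP and Myf5 cells had 1 each, so such values were rare in every class.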

How the data were processed

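Deposited peak lists were used for 7 of 10 samples; the 3 inputs had no list here. The submitters' processing notes list BWA 0.7.5 and CASAVA 1.8.2 as tools and hg19 and mm9 as builds, giving no roles. Positions were read as mm9, because H4Ac peaks on chromosome 1 extend to 197068167, and the GRCm38 genes there end at 195291439. The peak caller is not given in the sources used here. Per the labels' protocols, H4Ac chromatin was digested for 18 min (micrococcal nuclease, 15 units) and factor chromatin crosslinked for 11 min.

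The coverage and cutoff (signal) of each peak are the authors' whole numbers, per the file headers, with no scaling named. Per the file headers, every peak also has a p-value from the authors. The control p-values, treated as a score because some exceed 1 (up to 1.12), served only to mark values of 1e-05 or lower, per the file headers' names. In the GFP list, 1 control coverage was a placeholder and treated as missing; no control coverage entered a test.

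Peaks were merged and compared by overlap of at least 1 bp. A region takes the strength and GC bin of its strongest GFP peak or, without one, of its strongest peak. Standardised differences reweight the other class to the strata of the regions called with GFP only, in 5 GC bins, 6 width classes and 4 classes of coverage over cutoff. Simulated lists with planted classes were used to test the merging and overlap code. Named positions are the 10 strongest, the 5 widest, the 5 at the strongest MyoD peaks, the 5 at the strongest Myf5 peaks without MyoD, the 5 longest runs and those nearest to the thresholds. The regions and these lists were chosen with earlier results of these data known. Genes and sequences were not analysed here, because the annotation used is of another build. Overlaps were computed in Python 3.11.15 with pandas 2.3.3 and numpy 2.4.6, intervals with scipy 1.17.1, and plots with matplotlib 3.10.9.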

Additional observations from a re-analysis of the deposited data

How the results depend on the processing

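The number of regions called with GFP only depended on the rule. It was 2592 with peaks within 500 bp merged, 2983 with peaks of at least 1.2 times the cutoff in each list, 2483 with no H4Ac peak of the factor cells within 1 kb, 255 at 1.5 times and 22 at 2 times the cutoff. In these settings, in this order, the share at a MyoD peak was 15.6%, 22.9%, 15.3%, 25.1% and 22.7%, and at a Myf5 peak 32.3%, 43.5%, 31.9%, 46.3% and 54.5%. Factor peaks within 500 bp gave 25.3% and 46.7%, the stronger 50% of each factor list 9.37% and 20.2%, and lists of equal length 19.3% at Myf5 peaks. With factor lists of equal length, regions called in all 3 had a Myf5 share of 33.2%. For the rules that change merging, cutoff, distance or factor list, shares over all regions are not given. The 28.8% and 46.3% above hold for the main rule and are no comparison for them. A required overlap of 50 bp, H4Ac lists of equal length and removal of mock and high-control peaks moved no share beyond its interval, and the count by less than 1.5 times. The difference from regions called in all 3 was taken under the main rule, raw or matched, and for single GFP peaks. It was negative in each of these settings and is not given under the other rules above. At MyoD peaks it was -8.02 matched on width, -10.1 on coverage and -8.55 on GC, width and coverage. At Myf5 peaks it was -16.0 on GC, -9.35 on width, -9.82 on coverage and -6.52 on the 3 together. Single GFP peaks at their own extent, a comparison chosen after seeing the data, gave -12.7 raw, -12.1 on GC, -8.05 on width, -6.90 on coverage and -7.31 on the 3 together at MyoD peaks, and -15.4, -14.1, -8.72, -6.99 and -6.87 at Myf5 peaks. The share near a region called in all 3 was 23.1% by centres and 48.2% for any peak of the factor cells. Runs numbered 346 with gaps of at most 5 kb and 451 with 25 kb. Comparisons with classes other than all 3 were also added after seeing the data. The causes of these shifts were not tested. No paired analysis was possible because each group had 1 list, and no replicate could be left out.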

Other observations

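Regions called with GFP only were spread over all 19 autosomes and the X chromosome. As a share of the GFP regions of a chromosome they ranged from 13.4% (10.3 to 17.0) on the X chromosome, with 57 regions, and 14.6% (12.6 to 16.8) on chromosome 17, to 18.9% (17.4 to 20.4) on chromosome 1, with 501 regions. On the X chromosome 4 of the 57 regions had a MyoD peak, 7.02% (1.95 to 17.0), and regions called in all 3 populations had MyoD peaks there at 16.1% (12.1 to 20.9), the lowest share of any chromosome for each class.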
